A study of Mus musculus with 16 samples.

Results

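Collagen chain genes encode the protein chains that wind around each other into collagens, the structural proteins of connective tissue. Members were taken from the deposited count table by their symbol, Col followed by a number, the letter a and a further number, and 44 of the 56941 genes in the table carried such a symbol. Of these 44, 35 had 10 or more counts in 4 or more libraries. The same 35 passed the filter on low counts and entered the tests. By class, the tested members were 11 of 11 fibrillar collagen genes, 6 of 6 basement membrane genes, 5 of 9 FACIT genes (fibril-associated collagens with interrupted helices) and 13 of 18 other collagen genes.

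The cells were primary murine gingival fibroblasts (mGF), connective tissue cells of the gum, from WT C57Bl6 mice aged 3 to 6 months, used at passages 2 to 8 in medium with 20% serum. Each of 4 conditions lasted 24 h and was sequenced as bulk RNA in 4 libraries: BSA, the albumin carrier alone; IL-1β, a cytokine, at 1 ng/mL; palmitate, a saturated fatty acid, at 200 µM on BSA; and palmitate + IL-1β at those doses. Libraries are named by condition and number, BSA 1 to 4, IL-1β 5 to 8, palmitate 9 to 12 and palmitate + IL-1β 13 to 16. Counts on genes ranged from 21234789 in palmitate 9 to 92752515 in palmitate 10, and the collagen genes took between 4.92% and 5.76% of them. Nothing in the labels says that the libraries came from separate cultures or animals, so p-values measure only the spread between these samples.

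Collagen chains are hydroxylated and assembled in the endoplasmic reticulum, secreted as procollagens, trimmed outside the cell and cross-linked. Fibrillar types such as I, III and V form the load-bearing fibrils of the gum and the periodontal ligament, FACIT collagens coat those fibrils, and type IV collagens form the sheet-like network of basement membranes. Fibroblasts are the main makers of collagen in the gum, and both the build-up and the breakdown of this matrix are part of periodontal disease.

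Fibrillar chains dominated the collagen transcripts in these cells. The labels and the published methods describe different library kits, for total RNA or primed at the poly(A) tail, so levels per kb of different genes are approximate. Per kilobase of the canonical transcript, Col1a1 and Col1a2, the chains of type I, had the highest levels in BSA, at 2394 ± 58.3 and 1296 ± 54.4 CPM (counts scaled to library size with TMM factors) per kb (SD, n = 4). Below them came Col3a1 of type III at 890.3, Col4a1 of the basement membrane network at 506, Col5a2 of type V at 495 and Col12a1, a FACIT chain, at 465 CPM per kb. Summed over the 44 members on this per-kb scale, fibrillar genes made up 70.3 ± 0.172% in BSA, 68.5 ± 1.04% with IL-1β, 67.5 ± 0.513% with palmitate and 66.6 ± 0.631% with palmitate + IL-1β. Basement membrane genes made up 10.8 ± 0.246%, 10.9 ± 0.308%, 12.3 ± 0.106% and 12.5 ± 0.473% in the same order. FACIT genes held 6.32 ± 0.170%, 7.97 ± 1.14%, 6.97 ± 0.426% and 7.59 ± 0.765%, and the other genes 12.5 ± 0.257%, 12.6 ± 0.215%, 13.1 ± 0.246% and 13.4 ± 0.0740%. The fibrillar share in every treated library lay below that of every BSA library, and these shares were not tested. The fibrillar sum itself was 5549 ± 168 CPM per kb in BSA, 5788 ± 35.7 with IL-1β, 5391 ± 196 with palmitate and 5286 ± 180 with both. With IL-1β its share was thus lower although its mean sum was higher, and the FACIT sum went from 499 ± 26.9 to 674 ± 110 CPM per kb.

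The 9 members that did not enter the tests were Col13a1, Col19a1, Col22a1, Col25a1, Col26a1, Col6a5, Col6a6, Col9a1 and Col9a2. The most counts any of them reached in a library was 17, for Col22a1 in palmitate 10, the deepest library. Col22a1 had 2, 1, 1 and 2 counts in BSA, 5, 3, 5 and 3 with IL-1β, 3, 17, 8 and 9 with palmitate and 11, 7, 9 and 7 with both. Col9a2, which pairs with other type IX chains in cartilage, had 4, 3, 1 and 3 counts in BSA and 0, 0, 0 and 1 with palmitate, and no library had more than 4. With no filter on low counts, Col22a1 was called higher than in BSA with palmitate and with both, and Col19a1 higher with both than with IL-1β, while no other of the 9 was called. Col19a1 had 7, 0, 1 and 11 counts with both and 0, 2, 0 and 0 with IL-1β. A floor of 3 counts corresponds to 0.0331 CPM in palmitate 10 and 0.146 CPM in palmitate 9, and floors cover counting error only. Intervals given below come from the fit that gave the p-values and, like them, measure only the spread between these samples.

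The label of fibroblasts was checked against markers of 7 cell types, and a further list is not reported here. All 8 fibroblast markers entered the tests, with Vim the most abundant, and their summed level was 6536 ± 213 CPM in BSA, 6169 ± 160.2 with IL-1β, 5475 ± 96.5 with palmitate and 5165 ± 99.0 with palmitate + IL-1β. In BSA Vim alone averaged 5659 CPM, and Pdgfrb, Pdgfra, Thy1 and Dcn averaged 379, 213, 195 and 72.3 CPM. Fbln1, S100a4 and Lum were low there, at 14.3, 2.67 and 1.82 CPM. Of the 8, 1 rose and 2 fell with IL-1β, 1 rose and 4 fell with palmitate, and 1 rose and 7 fell with both, where 10.1% of all genes rose and 4.97% fell, 19.8% and 17.5%, and 24.8% and 22.5%. Vim made up most of the sum and fell with palmitate (-0.31, adjusted p = 6.43e-08), whereas Pdgfra, the 1 gene that rose, went from 213 ± 7.50 CPM in BSA to 309.7 ± 9.88 with palmitate and 307 ± 7.50 with both (0.54 and 0.53, adjusted p = 7.97e-13 and 1.03e-12). The genes named as highest below are so on average over the 16 libraries. Summed markers in BSA came to 0.465 ± 0.146 CPM for epithelial cells (6 genes, Cdh1 the highest, Krt8 and Krt18 at or under the floor in every library), 2.18 ± 0.728 CPM for leukocytes (6 genes, Cd68 the highest, Adgre1 and Cd3e at the floor) and 2.48 ± 0.199 CPM for endothelial cells (5 genes, Cdh5 the highest). Adipocyte markers summed to 0.273 ± 0.149 CPM (4 genes, Fabp4 the highest, Adipoq, Lep and Plin1 at the floor). The 5 mural and smooth muscle markers summed to 3420.4 ± 197 CPM in BSA, 3117 ± 180.2 with IL-1β, 3573 ± 57.2 with palmitate and 3239.9 ± 166 with palmitate + IL-1β, nearly all of it Acta2, an actin that cultured fibroblasts also make. Cspg4, Myh11, Rgs5 and Des of this list averaged 56.1, 20.9, 4.26 and 1.57 CPM in BSA. The part of these marker shifts in the collagen values was not tested.

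The comparison of palmitate with BSA asked what a saturated fatty acid does to collagen transcripts in gum fibroblasts. With palmitate, the type IV basement membrane chains Col4a1 and Col4a2, the type V chain Col5a3 and the endostatin-bearing Col18a1 were higher than in BSA, while the type I chain Col1a2, the cartilage-type fibrillar chain Col11a1 and the short-chain network collagens Col8a1, Col8a2 and Col10a1 were lower. The changes were modest, and 5 of the 16 genes that changed passed 1.5-fold. In bulk RNA, fewer cells of a type and less RNA per cell cannot be told apart. By the edgeR quasi-likelihood test with Benjamini-Hochberg adjusted p under 0.05 over the 16306 genes tested, 7 of 35 members rose and 9 fell, against 19.8% of all genes that rose, 17.5% that fell and 37.3% in either direction. The members' share that changed, 45.7%, stood beside that 37.3%. The median log2 fold change of the 35 was -0.02, and that of all genes tested was 0.00. Scaled by upper quartiles, which moved the median of all genes to -0.07, 6 members rose and 12 fell, and the share of all changed genes that were higher went from 53.1% to 37.1%.

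The comparison of IL-1β with BSA asked what an inflammatory cytokine of the gum does by itself. Fewer collagen genes passed the test than with palmitate, and those that did were higher. Col12a1, a FACIT chain, and Col6a3, the long chain of type VI, had the largest rises that passed the test, at log2 fold changes of 0.46 and 0.46, and Col4a2 and Col1a1 rose by 0.13 and 0.12. In all, 4 of 35 members rose and 0 fell in edgeR, where 15.1% of all genes changed, 10.1% rising and 4.97% falling. DESeq2 gave 4 higher and 0 lower, and 12 of 35 members had an unadjusted p under 0.05 in edgeR. This count depended on single libraries: it was 0 without BSA 1 or BSA 2, 8 without BSA 3, 1 without IL-1β 8, and 2 without IL-1β 7, palmitate 9, palmitate 12, palmitate + IL-1β 13 or palmitate + IL-1β 14. With upper-quartile factors, 2 members rose and 3 fell, and the share of all changed genes that were higher went from 67.1% to 43.5%. None of the 4 calls held under every alternative.

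Fatty acid and cytokine together stood for a setting in which both reach the fibroblast. The basement membrane chains Col4a1 and Col4a2 were again higher than in BSA, and Col1a2 and the type VIII chains lower. Palmitate + IL-1β gave the most changed members of the comparisons with BSA, 10 higher and 9 lower than BSA among the 35. Across all genes 24.8% rose, 22.5% fell and 47.3% changed in either direction, beside 54.3% of the members. Col4a3, Col6a4 and Col24a1, all of them low in level, had the largest rises, and Col9a3, Col8a2 and Col11a1 the largest falls. With upper-quartile factors 8 members rose and 12 fell, with a median of all genes at -0.08, and the share of all changed genes that were higher went from 52.4% to 38.7%. Mitochondrial genes took 12.8 ± 0.516% of counts in BSA, 12.4 ± 1.20% with IL-1β, 12.4 ± 0.544% with palmitate and 11.1 ± 0.321% with both. All combined libraries lay below all BSA libraries in this share, and its part in the collagen values was not tested. The 3 treated conditions were each compared with the same 4 BSA libraries, so their values are given side by side.

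The combined treatment was also compared with each agent alone. Col5a3 and Col18a1 were higher and Col1a1, Col1a2, Col11a1 and the type VIII chains lower with both than with IL-1β, while the combination and palmitate alone were separated by the test for Col8a1 only. Against IL-1β, which asks what palmitate adds in the presence of the cytokine, 4 members were higher and 6 lower, where 18.9% of all genes rose, 16.1% fell and 35% changed. Against palmitate, which asks what the cytokine adds to the fatty acid, 0 members rose and 1 fell, Col8a1, where 5.71% of all genes rose, 4.10% fell and 9.81% changed. DESeq2 called Col8a1 alone as well, and 2 members had an unadjusted p under 0.05 in edgeR, Col8a1 and Col23a1. That count was 0 without palmitate 9, palmitate 12 or palmitate + IL-1β 15, and 2 without IL-1β 8 or palmitate + IL-1β 13, where Col23a1 was called as well. Without palmitate 11 the 1 call was Col23a1. Palmitate against IL-1β gave 4 higher and 7 lower, where 16.5% of all genes rose, 15.2% fell and 31.6% changed.

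The interaction asks whether the 2 agents together differ from the sum of their separate changes on the log2 scale. None of the 35 members passed it in edgeR, where 1.99% of all genes did, and DESeq2 gave 0 as well, with 10 of the 35 left without an adjusted p by its own filter. Unadjusted p-values under 0.05 were found for 5 members in edgeR and 2 in DESeq2. The 5 were Col10a1 (interaction log2 value 0.33), Col1a1 (-0.13), Col20a1 (0.39), Col4a3 (-0.92) and Col9a3 (0.75), with adjusted p from 0.363 to 0.475. They were named after their values were seen.

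With palmitate 45.5% of the fibrillar, 50% of the basement membrane, 40% of the FACIT and 46.2% of the other collagen genes changed, beside 37.3% of all genes. With both agents the shares were 63.6%, 50%, 20% and 61.5%, beside 47.3%, and with IL-1β 9.09%, 16.7%, 20% and 7.69%, beside 15.1%. With palmitate, 2 fibrillar genes rose and 3 fell of 11, 3 basement membrane genes rose and 0 fell of 6, 0 FACIT genes rose and 2 fell of 5, and 2 other collagen genes rose and 4 fell of 13. With both agents the fibrillar genes had 3 rises and 4 falls, the basement membrane genes 3 and 0, the FACIT genes 0 and 1, and the other genes 4 and 4. IL-1β gave 1 rise in each class, counts that rest on the single libraries named above. Over the alternatives, the basement membrane class had 2 to 3 rises with palmitate and 0 to 4 with IL-1β, the 4 being reached without BSA 3, and no fall in any of the 3 comparisons with BSA. Fibrillar genes had 1 to 2 rises and 3 to 4 falls with palmitate over the same alternatives. The filter at an average log2 CPM of 1 gave 2 and 1 rises in these classes, as Col4a3 and Col24a1 were not tested there. Differences between classes were not tested.

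**Figure D1:**
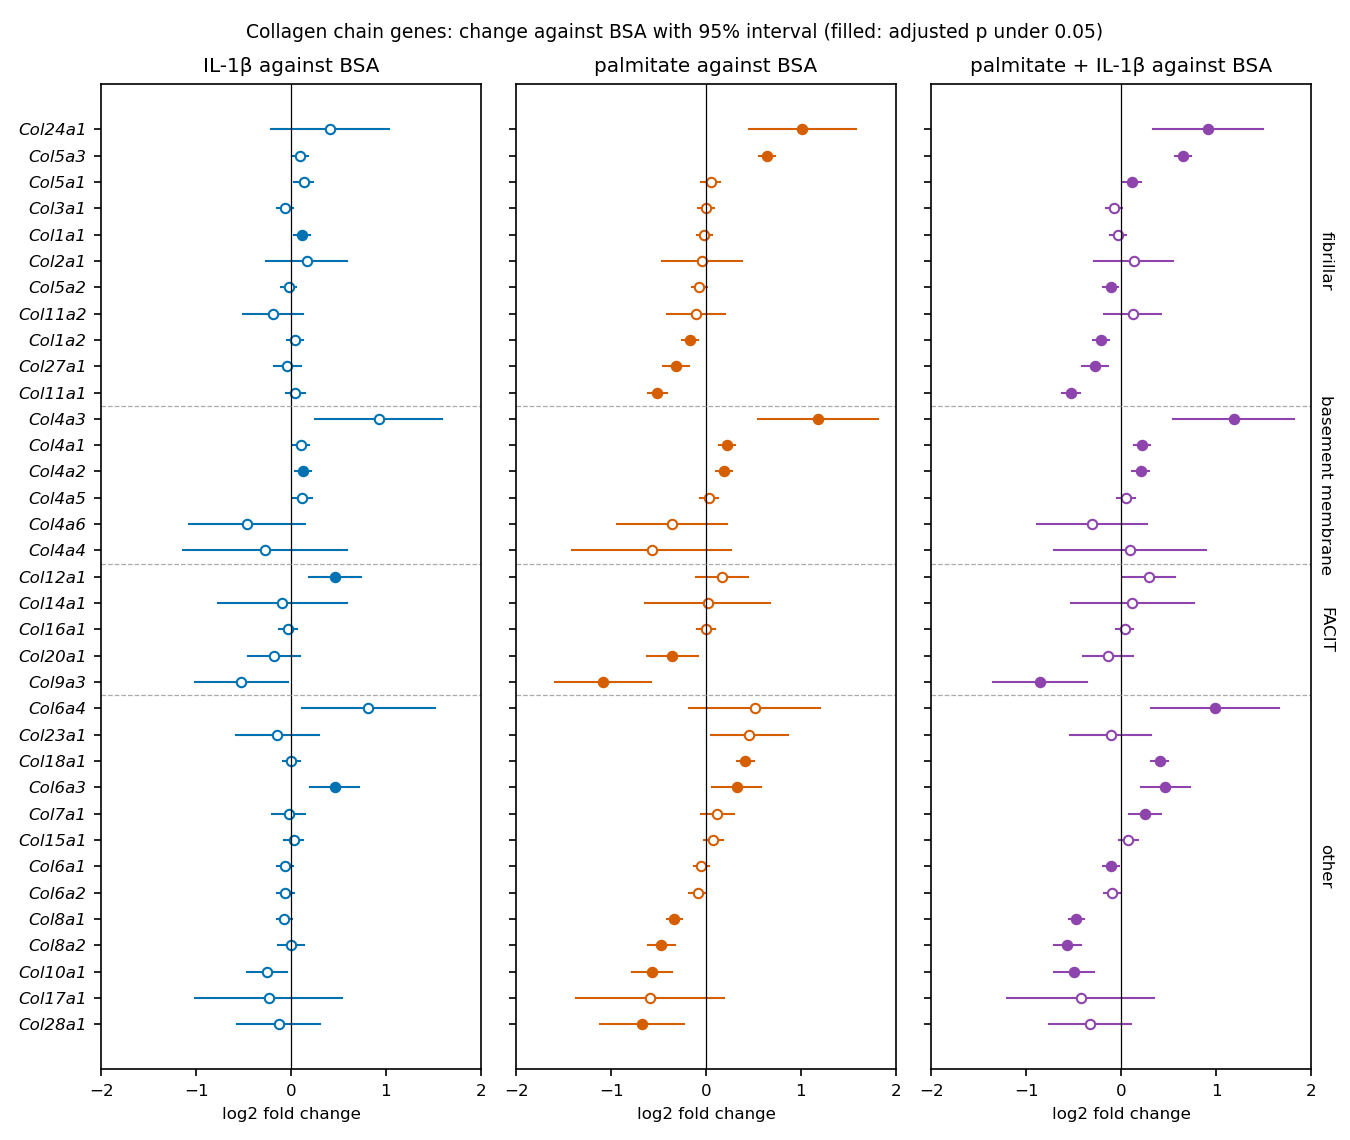
Log2 fold change of each of the 35 tested collagen genes against BSA, with its 95% interval from the edgeR fit, for IL-1β (left), palmitate (middle) and palmitate + IL-1β (right), 4 libraries a condition. Genes are grouped by class on the vertical axis and ordered by their change with palmitate, and filled points passed an adjusted p of 0.05: 4 with IL-1β, 16 with palmitate and 19 with both.

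Type I collagen, built from Col1a1 and Col1a2 chains, is the main fibril of gum, skin and bone, and its 2 genes did not move alike. Col1a1 measured 13824, 13995, 14580.1 and 14375 CPM in BSA, 15154, 15182, 15642 and 15566 with IL-1β, 14305, 14405, 13219 and 14205 with palmitate and 14044, 13524, 14712 and 13208 with palmitate + IL-1β. All 4 IL-1β libraries lay above all 4 BSA libraries, while the palmitate and the combined libraries overlapped with BSA, with palmitate 11 the lowest of its group. Against BSA the log2 fold change of Col1a1 was 0.12 (adjusted p = 0.0449) with IL-1β, -0.02 (adjusted p = 0.788) with palmitate and -0.03 (adjusted p = 0.524) with both. The rise with IL-1β was no longer called without BSA 1, 2 or 4, IL-1β 5, 6, 7 or 8, palmitate 9, 10 or 12 or palmitate + IL-1β 13 or 14 (log2 fold changes 0.10 to 0.12, adjusted p from 0.0540 to 0.166), nor with upper-quartile factors (0.07, adjusted p = 0.215), the offset for transcript length (0.07, adjusted p = 0.267), TMM factors without collagen genes, no filter, only the 8 libraries compared, or without IL-1β 8 and palmitate + IL-1β 15 together (adjusted p from 0.0570 to 0.267 over these 6). Col1a1 was lower with palmitate than with IL-1β, -0.13 (adjusted p = 0.0103), and lower with both than with IL-1β, -0.15 (adjusted p = 0.00353). Without palmitate 11 the first of these was log2 fold change -0.10, adjusted p = 0.0671.

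Col1a2, the other chain of the same molecule, measured 6730.3, 6656, 7230.1 and 7154 CPM in BSA, 7142, 7073, 7174 and 7269.8 with IL-1β, 6301, 6307, 5861 and 6224 with palmitate and 6128, 6032, 6117 and 5651 with palmitate + IL-1β. Every library that received palmitate lay below every library that did not. With palmitate Col1a2 fell, log2 fold change -0.17 (95% interval -0.25 to -0.09, adjusted p = 0.00103), and with both agents it fell by 0.21 (adjusted p = 4.38e-05) on the log2 scale. Against IL-1β the values were -0.21 (adjusted p = 8.54e-05) for palmitate and -0.26 (adjusted p = 4.19e-06) for the combination. With IL-1β alone the change against BSA was 0.05 (adjusted p = 0.511), and the groups overlapped. These falls kept their call under every alternative tried.

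The ratio of Col1a1 to Col1a2 counts within a library does not depend on library size. It was 2.05, 2.10, 2.02 and 2.01 in BSA, 2.12, 2.15, 2.18 and 2.14 with IL-1β, 2.27, 2.28, 2.26 and 2.28 with palmitate, and 2.29, 2.24, 2.41 and 2.34 with both. In each treated group all 4 ratios were above the 4 BSA ratios. Means were 2.05 ± 0.0427 in BSA, 2.15 ± 0.0244 with IL-1β, 2.27 ± 0.0132 with palmitate and 2.32 ± 0.0694 with both (SD, n = 4). The exact two-sided permutation test gave p = 0.0286 for each treatment, the smallest that 4 against 4 libraries can give, and 0.0857 after adjustment over the 12 ratio tests, so none passed 0.05 once adjusted. The differences in log2 ratio, 0.07, 0.15 and 0.18, were 0.06 to 0.08, 0.14 to 0.17 and 0.16 to 0.20 when each library was left out in turn.

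Type III collagen, made of Col3a1 chains alone and laid down in the same fibrils as type I, showed no called change against BSA. Col3a1 measured 4959, 4723, 5109 and 5023 CPM in BSA, 4876, 4849, 4683 and 4565 with IL-1β, 5138, 5097, 4711 and 4866 with palmitate and 4944, 4722, 4571 and 4510.4 with palmitate + IL-1β. All groups overlapped with BSA. Its log2 fold changes were -0.06 (adjusted p = 0.351) with IL-1β, 0.00 (adjusted p = 0.999) with palmitate and -0.08 (adjusted p = 0.116) with both. The last was called without BSA 2 or palmitate + IL-1β 13 (log2 fold change -0.12, adjusted p from 0.0349 to 0.0383). It was also called with upper-quartile factors, at -0.16 (adjusted p = 0.00139).

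Type V collagen starts fibrils and limits their width, and its less abundant chain, Col5a3, had the largest rise with palmitate among members above 100 CPM. Col5a3 measured 377, 362, 387 and 368 CPM in BSA, 373, 406, 423 and 393 with IL-1β, 572, 601, 588 and 564 with palmitate and 586, 581, 586 and 594 with palmitate + IL-1β. The 8 libraries with palmitate, alone or combined, all lay above the 8 without it, and IL-1β alone overlapped with BSA. With palmitate the log2 fold change was 0.64 (95% interval 0.55 to 0.72, adjusted p = 4.93e-14), and with both it was 0.65 (adjusted p = 2.09e-14). Against IL-1β, Col5a3 was higher by 0.54 (adjusted p = 4.16e-12) with palmitate and 0.56 (adjusted p = 1.87e-12) with both. IL-1β alone gave 0.09 (adjusted p = 0.134), which was called without IL-1β 5 (log2 fold change 0.13, adjusted p = 0.0476).

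The more abundant type V chains moved little. Col5a1 measured 3088, 2915, 3344 and 3354 CPM in BSA, 3359, 3405, 3536 and 3627 with IL-1β, 3408, 3453, 3042 and 3251 with palmitate and 3378, 3314, 3672 and 3395 with palmitate + IL-1β. Its IL-1β libraries lay just above the BSA libraries, and the other groups overlapped with BSA. Col5a1 rose with both agents at 0.12 (adjusted p = 0.0492), a call that was lost under each of the 8 alternatives that leave no single library out, DESeq2 and upper-quartile factors among them, and without BSA 1 or 2, IL-1β 6 or 7, palmitate 9, 10 or 12 or palmitate + IL-1β 13, 14, 15 or 16 (log2 fold changes 0.06 to 0.12, adjusted p from 0.0501 to 0.325). With IL-1β alone it stood at 0.13 (adjusted p = 0.0602), called without BSA 3, BSA 4 or palmitate + IL-1β 15 (log2 fold changes 0.13 to 0.16, adjusted p from 0.0277 to 0.0470), and with palmitate at 0.05 (adjusted p = 0.447). Col5a2 measured 3754, 3647, 3709 and 3848 CPM in BSA, 3760.1, 3766, 3696 and 3509 with IL-1β, 3584, 3636, 3471 and 3548 with palmitate and 3513, 3375, 3564 and 3393 with palmitate + IL-1β. The palmitate and the combined libraries all lay below the BSA libraries. Col5a2 fell with both agents, -0.11 (adjusted p = 0.0162), though not without BSA 4 (log2 fold change -0.10, adjusted p = 0.0595), and stood at -0.07 (adjusted p = 0.150) with palmitate and -0.02 (adjusted p = 0.766) with IL-1β. Without IL-1β 8, Col5a2 was also called lower with both than with IL-1β alone (log2 fold change -0.11, adjusted p = 0.0300, against 0.0677 with all libraries).

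Within libraries, the ratio of Col5a1 to Col5a2 counts was 0.823, 0.799, 0.902 and 0.872 in BSA, 0.893, 0.904, 0.957 and 1.03 with IL-1β, 0.951, 0.950, 0.876 and 0.916 with palmitate and 0.961, 0.982, 1.03 and 1.00 with both. Only the combined group lay wholly above BSA. For it the exact permutation test gave p = 0.0286, adjusted 0.0857, with a difference of 0.23 in log2 ratio (0.20 to 0.26 over the libraries left out). IL-1β and palmitate gave exact p = 0.0571 each, adjusted 0.114.

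Among the fibrillar chains best known from cartilage, Col11a1, a chain of type XI that starts cartilage fibrils, was the most clearly lower. It measured 247, 229.6, 256 and 263 CPM in BSA, 265, 249.5, 247 and 267 with IL-1β, 181, 183, 158 and 176 with palmitate and 174, 168, 170.2 and 178 with palmitate + IL-1β. The libraries fell into separate ranges, all 8 with palmitate below all 8 without it. The log2 fold change was -0.51 with palmitate (95% interval -0.61 to -0.42, adjusted p = 2.22e-10), -0.53 (adjusted p = 8.70e-11) with both and 0.05 (adjusted p = 0.584) with IL-1β. Against IL-1β it was -0.56 (adjusted p = 5.62e-11) with palmitate and -0.57 (adjusted p = 2.60e-11) with both. Col27a1, a fibrillar chain of cartilage and developing bone, fell by a smaller amount, -0.32 (adjusted p = 0.000370) with palmitate and -0.27 (adjusted p = 0.00139) with both. Its means were 40.6 ± 2.60 CPM in BSA, 39.7 ± 2.15 with IL-1β, 32.6 ± 1.75 with palmitate and 33.7 ± 4.05 with both. Against IL-1β it was -0.28 (adjusted p = 0.00194) with palmitate and -0.23 (adjusted p = 0.00750) with both, the latter no longer called without IL-1β 8 and palmitate + IL-1β 15 together.

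Col24a1, described in developing bone, was rare and rose. Col24a1 measured 0.355, 0.291, 0.610 and 0.384 CPM in BSA, 0.532, 0.469, 0.570 and 0.580 with IL-1β, 0.972, 0.771, 0.624 and 0.986 with palmitate and 0.907, 0.794, 0.611 and 0.737 with palmitate + IL-1β. The palmitate and combined libraries all lay above the BSA and the IL-1β libraries. The log2 fold change was 1.02 with palmitate (95% interval 0.45 to 1.58, adjusted p = 0.00387) and 0.92 (adjusted p = 0.00792) with both, and 0.41 (adjusted p = 0.415) with IL-1β. Col2a1, the main collagen of cartilage, averaged 1.18 ± 0.142 CPM in BSA and Col11a2 of type XI 4.34 ± 0.542 CPM, and neither was called in any comparison with all 16 libraries. Col11a2 was higher with both than with IL-1β without IL-1β 6 or palmitate + IL-1β 15 (log2 fold change 0.44, adjusted p from 0.0206 to 0.0369). The sum of the bone and cartilage markers, nearly all of it Sox9 and Runx2, moved beside these genes. It was 107 ± 3.54 CPM in BSA, 95.8 ± 1.97 with IL-1β, 65.2 ± 1.23 with palmitate and 59.1 ± 3.89 with both. Of the 6 markers 2 entered the tests, Runx2 with log2 fold change -0.68 with palmitate, and Sox9 with -0.76. Sox9 averaged 54.0 ± 3.21 CPM in BSA and 31.9 ± 1.13 with palmitate, and Runx2 52.7 ± 1.30 and 33.1 ± 1.59, while Bglap was at or under the floor. Acan, Sp7 and Ibsp were near absent, at 0.129, 0.200 and 0.0235 CPM in BSA, and did not enter the tests. The part of Sox9 and Runx2 in the collagen changes was not tested.

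Basement membrane chains moved up or did not pass the test, and none was called lower against BSA. Col4a1 and Col4a2 wind together into the type IV network found under most epithelia and around vessels. Col4a1 measured 3266, 3118, 3509 and 3493 CPM in BSA, 3628, 3536, 3669 and 3539 with IL-1β, 3948, 4066, 3724 and 3879.8 with palmitate and 3860.5, 3817, 3983 and 3932 with palmitate + IL-1β. Every treated library lay above every BSA library, and the palmitate libraries also lay above the IL-1β libraries. Palmitate gave a log2 fold change of 0.22 (95% interval 0.14 to 0.31, adjusted p = 5.87e-05), both agents gave 0.22 (adjusted p = 4.83e-05) and IL-1β alone gave 0.10 (adjusted p = 0.0960), the last called without BSA 3 (log2 fold change 0.13, adjusted p = 0.0417). Against IL-1β, Col4a1 was 0.12 (adjusted p = 0.0261) higher with palmitate and 0.12 (adjusted p = 0.0265) higher with both. These direct calls were lost without IL-1β 6, 7 or 8 or palmitate 9 or 10 for palmitate (log2 fold changes 0.10 to 0.12, adjusted p from 0.0525 to 0.109), without IL-1β 6, 7 or 8 or palmitate + IL-1β 13, 14 or 15 for the combination (log2 fold changes 0.11 to 0.12, adjusted p from 0.0520 to 0.0694), with upper-quartile factors and without IL-1β 8 and palmitate + IL-1β 15 together for each, and with no filter or only the 8 libraries compared for the combination.

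Its partner Col4a2 measured 2132, 2095, 2365 and 2239.8 CPM in BSA, 2403, 2378, 2501 and 2357 with IL-1β, 2558, 2622, 2381 and 2496 with palmitate and 2558, 2462, 2546 and 2614 with palmitate + IL-1β. The palmitate and the combined libraries lay above BSA, and IL-1β overlapped with it through BSA 3. Col4a2 rose with palmitate, 0.19 (adjusted p = 0.000640), with both, 0.20 (adjusted p = 0.000168), and with IL-1β, 0.13 (adjusted p = 0.0416). The rise with IL-1β was lost without BSA 1, 2 or 4, IL-1β 5, 6 or 7, palmitate 9 or 12 or palmitate + IL-1β 13 or 14 (log2 fold changes 0.10 to 0.13, adjusted p from 0.0504 to 0.186) and with upper-quartile factors (0.08, adjusted p = 0.181), TMM factors without collagen genes, no filter on low counts, only the 8 libraries compared and the transcript length offset (adjusted p from 0.0525 to 0.393 over these 5). The ratio of Col4a1 to Col4a2 counts averaged 1.52 ± 0.0365 in BSA, 1.49 ± 0.0187 with IL-1β, 1.55 ± 0.00838 with palmitate and 1.53 ± 0.0299 with both. All groups overlapped with BSA in this ratio, and the exact permutation p-values were 0.286, 0.114 and 0.514.

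The remaining type IV chains, which make the specialised networks of kidney, lung and smooth muscle, were far less abundant. Col4a5 measured 135, 143, 157 and 148 CPM in BSA, 155, 153, 161 and 163 with IL-1β, 160.0, 152, 138 and 144 with palmitate and 149, 157, 151 and 146 with palmitate + IL-1β. It overlapped with BSA in each comparison, at 0.12 (adjusted p = 0.0909) with IL-1β, 0.03 (adjusted p = 0.681) with palmitate and 0.05 (adjusted p = 0.389) with both, and was called with IL-1β without BSA 3 (log2 fold change 0.16, adjusted p = 0.0228). Col4a3 measured 0.266, 0.226, 0.458 and 0.210 CPM in BSA, 0.614, 0.351, 0.665 and 0.539 with IL-1β, 0.680, 0.716, 0.624 and 0.534 with palmitate and 0.595, 0.728, 0.643 and 0.663 with palmitate + IL-1β. The palmitate and combined libraries lay above all BSA libraries, while IL-1β 6 lay below BSA 3. Col4a3 had the largest called log2 fold change of the 35 tested members, 1.18 with palmitate (95% interval 0.55 to 1.81, adjusted p = 0.00265) and 1.19 (adjusted p = 0.00217) with both. IL-1β gave 0.93 (adjusted p = 0.0544), called without BSA 3 or IL-1β 6 (log2 fold changes 1.08 to 1.20, adjusted p from 0.0198 to 0.0296).

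Col4a4, the neighbour of Col4a3 on chromosome 1, measured 0.355, 0.162, 0.267 and 0.559 CPM in BSA, 0.327, 0.234, 0.190 and 0.373 with IL-1β, 0.146, 0.276, 0.147 and 0.246 with palmitate and 0.312, 0.199, 0.418 and 0.516 with palmitate + IL-1β. All groups overlapped, and its log2 fold change was -0.57 (adjusted p = 0.295) with palmitate. Col4a6 measured 1.04, 0.840, 0.572 and 0.699 CPM in BSA, 0.286, 0.703, 0.633 and 0.663 with IL-1β, 0.583, 0.551, 0.551 and 0.863 with palmitate and 0.850, 0.728, 0.450 and 0.516 with palmitate + IL-1β. IL-1β 5 was the lowest library of all, and the groups overlapped. Its changes were -0.47 (adjusted p = 0.333) with IL-1β and -0.36 (adjusted p = 0.347) with palmitate.

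**Figure D2:**
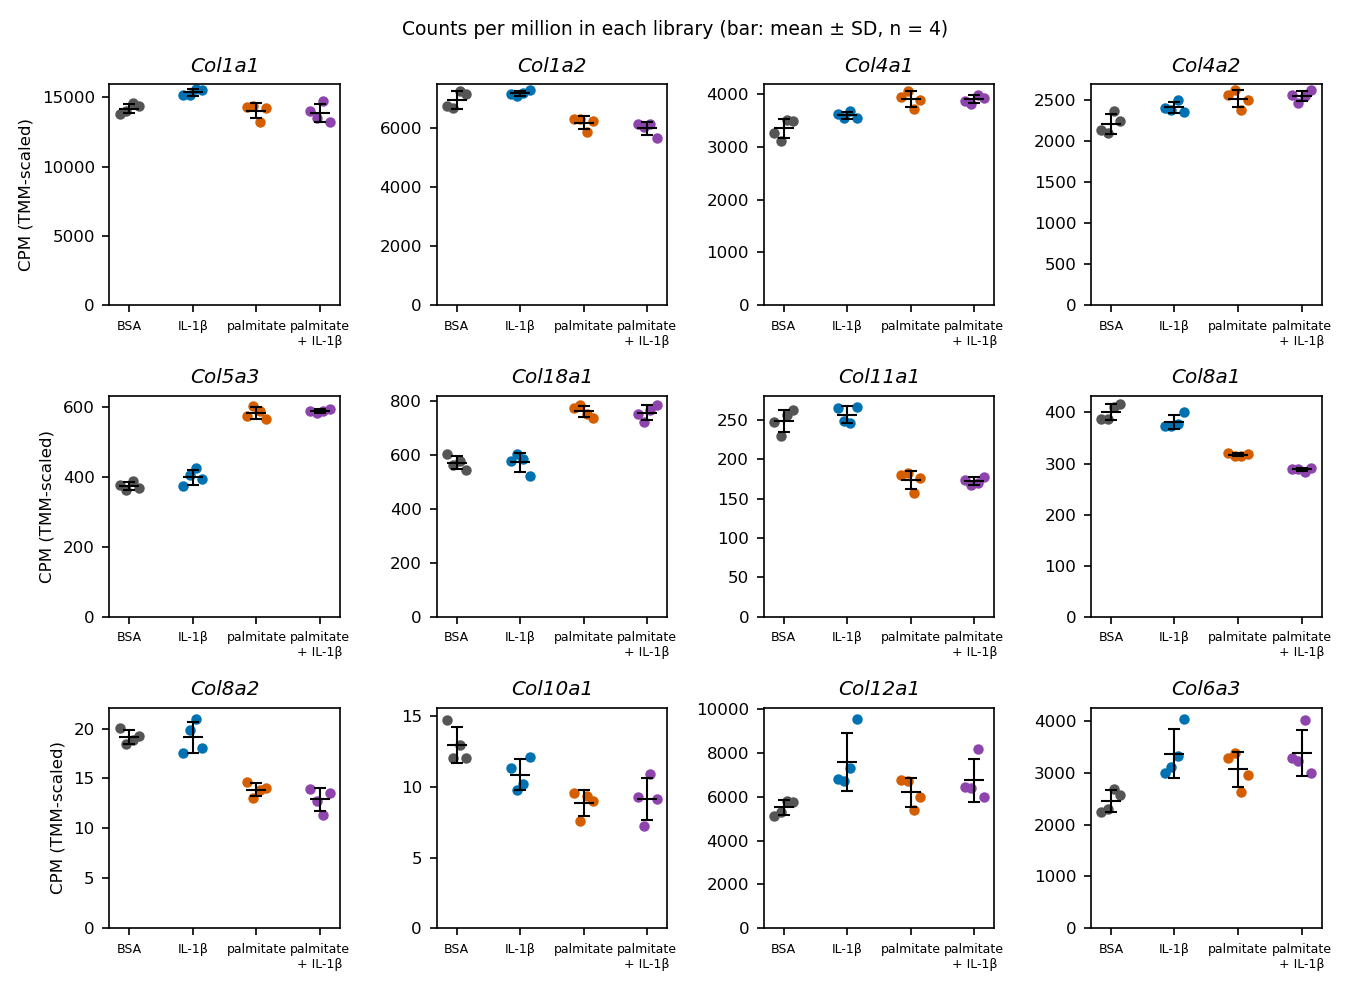
CPM on TMM-scaled library sizes in each of the 16 libraries for 12 collagen genes, 1 panel a gene with the vertical axis from 0, where points are libraries and bars give the mean ± SD of the 4 libraries of a condition. Col5a3 and Col18a1 sit higher and Col11a1, Col8a1 and Col8a2 lower in all 8 libraries with palmitate than in the 8 without, while Col12a1 and Col6a3 reach their highest points in IL-1β 8 (9535 and 4044 CPM).

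FACIT collagens bind to the surface of fibrils, and their most abundant member, Col12a1, lines fibrils in load-bearing tissue such as the periodontal ligament. Col12a1 measured 5139, 5321, 5804 and 5771 CPM in BSA, 6803, 6731, 7313 and 9535 with IL-1β, 6748, 6724, 5374 and 5972 with palmitate and 6440.4, 6378, 8181 and 6001 with palmitate + IL-1β. All IL-1β and all combined libraries lay above BSA, with IL-1β 8 and palmitate + IL-1β 15 far above the rest of their groups, and palmitate overlapped with BSA. The log2 fold change was 0.46 with IL-1β (95% interval 0.19 to 0.74, adjusted p = 0.0257), 0.29 (adjusted p = 0.0737) with both and 0.17 (adjusted p = 0.326) with palmitate. The call with IL-1β was lost without BSA 1, BSA 2 or IL-1β 8 (log2 fold changes 0.34 to 0.44, adjusted p from 0.0634 to 0.0783) and with no filter on low counts, at 0.45 (adjusted p = 0.0656). With both agents Col12a1 was called without IL-1β 8 (log2 fold change 0.29, adjusted p = 0.0257).

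Transcripts of 8000 bases or more moved with Col12a1, whose own transcript has 11846. The share of counts in 1188 such protein-coding genes, collagens aside, was 10.8 ± 0.433% in BSA, 12.3 ± 1.06% with IL-1β, 11.6 ± 0.587% with palmitate and 12.4 ± 0.821% with both (SD, n = 4). It was highest in IL-1β 8 at 13.8% and palmitate + IL-1β 15 at 13.6%, and lowest in BSA 1 at 10.3%. After an offset for transcript length, an alternative added once the data had been seen, Col12a1 remained higher with IL-1β at 0.28 (adjusted p = 0.000383) and Col6a3, of 9107 bases, at 0.33 (adjusted p = 0.00562). Without IL-1β 8 and palmitate + IL-1β 15 together, also added later, the values were 0.34 (adjusted p = 0.00191) and 0.36 (adjusted p = 0.0118). Why long transcripts differ between these libraries was not tested.

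Col9a3, a chain of type IX that decorates cartilage fibrils, had the largest fall of the 35 tested members. It measured 1.04, 1.42, 1.30 and 1.08 CPM in BSA, 0.777, 0.664, 0.950 and 0.953 with IL-1β, 0.486, 0.430, 0.624 and 0.863 with palmitate and 0.623, 0.629, 0.579 and 0.847 with palmitate + IL-1β. The libraries of each treated condition all lay below the BSA libraries. The log2 fold change was -1.09 with palmitate (95% interval -1.60 to -0.58, adjusted p = 0.000690), -0.86 (adjusted p = 0.00438) with both and -0.52 (adjusted p = 0.155) with IL-1β. Palmitate against IL-1β gave -0.57 (adjusted p = 0.107), called without palmitate 12 (log2 fold change -0.76, adjusted p = 0.0369). Col20a1 fell with palmitate, -0.36 (adjusted p = 0.0327), from 3.82 ± 0.311 CPM to 2.98 ± 0.368 CPM, with overlapping groups and no call without BSA 1 or 3 or palmitate 9, 10 or 12 (log2 fold changes -0.33 to -0.32, adjusted p from 0.0684 to 0.103). Col16a1 averaged 186 ± 7.88 CPM in BSA and Col14a1 0.577 ± 0.135 CPM, and neither was called in any of the 7 tests.

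Type VI collagen forms beaded filaments around cells from Col6a1, Col6a2 and a longer chain, most often Col6a3. Col6a3 measured 2237, 2304, 2679 and 2582 CPM in BSA, 2991, 3116, 3333 and 4044 with IL-1β, 3291, 3387, 2629 and 2964 with palmitate and 3281, 3219.5, 4024 and 2995 with palmitate + IL-1β. IL-1β and the combination lay above BSA in all libraries, with IL-1β 8 and palmitate + IL-1β 15 the highest, and palmitate overlapped with BSA through palmitate 11. The log2 fold change was 0.46 (adjusted p = 0.0192) with IL-1β, 0.32 (adjusted p = 0.0474) with palmitate and 0.46 (adjusted p = 0.00561) with both. The call with IL-1β was lost without BSA 1, BSA 2 or IL-1β 8 (log2 fold changes 0.36 to 0.43, adjusted p from 0.0574 to 0.0645) and with no filter on low counts (0.45, adjusted p = 0.0522). The call with palmitate was lost without BSA 1, 2 or 4, IL-1β 6 or 7, palmitate 9, 10 or 12 or palmitate + IL-1β 13 or 14 (log2 fold changes 0.27 to 0.35, adjusted p from 0.0539 to 0.131) and with upper-quartile factors (0.25, adjusted p = 0.0985), TMM factors without collagen genes or no filter (adjusted p from 0.0503 to 0.137 over these 3). The call with both agents held under every alternative.

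Of the short chains of type VI, Col6a1 was called lower with both agents and Col6a2 in no comparison with all 16 libraries. Col6a1 measured 1643, 1624, 1609 and 1541 CPM in BSA, 1535, 1547, 1587 and 1469.8 with IL-1β, 1579, 1566, 1567 and 1488 with palmitate and 1564, 1475, 1444 and 1478 with palmitate + IL-1β. The groups overlapped, with palmitate 12 the lowest of its group. Col6a1 fell with both agents, -0.11 (adjusted p = 0.0275), though not without palmitate + IL-1β 15 (log2 fold change -0.09, adjusted p = 0.0859) or without it and IL-1β 8 together (-0.09, adjusted p = 0.0704), and stood at -0.06 (adjusted p = 0.316) with IL-1β and -0.05 (adjusted p = 0.354) with palmitate. With upper-quartile factors it was also called lower with IL-1β (-0.11, adjusted p = 0.0490) and with palmitate (-0.12, adjusted p = 0.0151). Col6a2 measured 794, 743, 727 and 739.7 CPM in BSA, 725, 755, 730.1 and 668 with IL-1β, 712, 737, 703 and 676 with palmitate and 726, 696, 676 and 713 with palmitate + IL-1β. The combined libraries all lay just below BSA, and the others overlapped with it. Its changes were -0.06 (adjusted p = 0.391), -0.09 (adjusted p = 0.122) and -0.10 (adjusted p = 0.0719) in the order IL-1β, palmitate and both, the last called without palmitate + IL-1β 13 (log2 fold change -0.12, adjusted p = 0.0415). The ratio of Col6a1 to Col6a2 counts averaged 2.14 ± 0.0720 in BSA, 2.13 ± 0.0672 with IL-1β, 2.19 ± 0.0465 with palmitate and 2.12 ± 0.0351 with both, with exact permutation p-values of 0.914, 0.200 and 0.686.

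Col6a4, a rare chain that can take the place of Col6a3, measured 0.207, 0.614, 0.534 and 0.245 CPM in BSA, 0.573, 0.703, 0.728 and 0.787 with IL-1β, 0.486, 0.683, 0.588 and 0.370 with palmitate and 0.482, 0.728, 1.09 and 0.884 with palmitate + IL-1β. The groups overlapped in every comparison. It rose with both agents, 0.99 (95% interval 0.32 to 1.67, adjusted p = 0.0138), a call lost without BSA 1, BSA 4 or palmitate + IL-1β 15 (log2 fold changes 0.74 to 0.83, adjusted p from 0.0534 to 0.0763) or without IL-1β 8 and palmitate + IL-1β 15 together (0.79, adjusted p = 0.0702). IL-1β and palmitate gave 0.82 (adjusted p = 0.112) and 0.51 (adjusted p = 0.252).

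**Figure D3:**
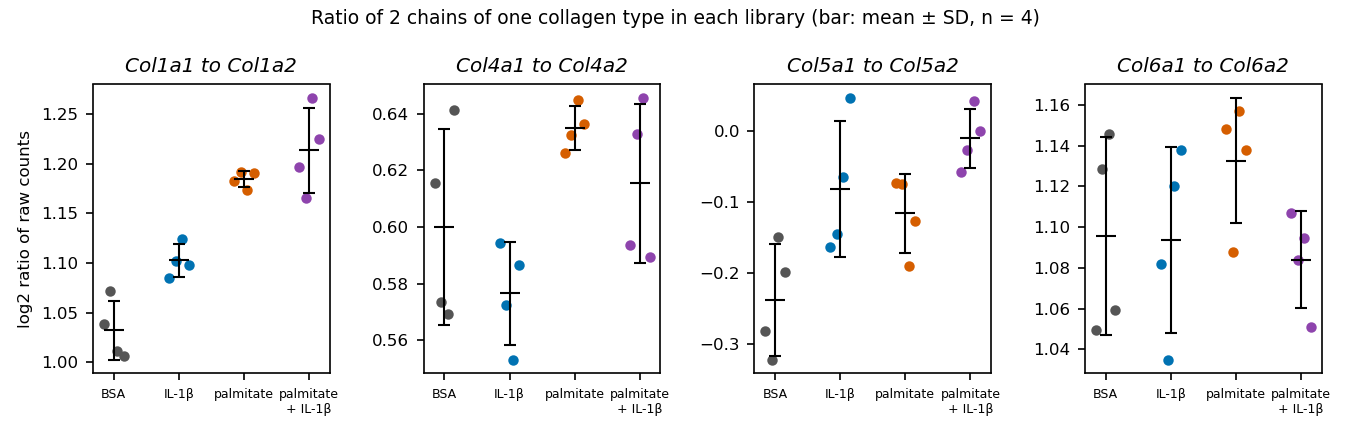
Log2 ratio of raw counts of 2 chains of the same collagen type in each library, 1 panel a pair, by condition, on axes that do not start at 0, where bars give the mean ± SD of 4 libraries. The ratio of Col1a1 to Col1a2 lies above BSA in all 12 treated libraries, with means of 1.03 in BSA, 1.10 with IL-1β, 1.18 with palmitate and 1.21 with both, while Col4a1 to Col4a2 and Col6a1 to Col6a2 overlap between BSA and each treatment.

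Network-forming short-chain collagens, which build hexagonal lattices in Descemet's membrane, vessel walls and growth cartilage, all fell with palmitate. Col8a1 measured 387, 387, 411 and 416 CPM in BSA, 374, 373, 377 and 402 with IL-1β, 321, 315, 315 and 319 with palmitate and 289, 289, 284 and 292 with palmitate + IL-1β. The ranges were separate and stepped down from the libraries without palmitate to palmitate and then to the combination. Log2 fold changes against BSA were -0.34 with palmitate (95% interval -0.42 to -0.25, adjusted p = 2.78e-08), -0.47 (adjusted p = 1.29e-11) with both and -0.07 (adjusted p = 0.262) with IL-1β. Against IL-1β they were -0.27 (adjusted p = 2.95e-06) with palmitate and -0.40 (adjusted p = 8.65e-10) with both. Col8a1 was also lower with both than with palmitate alone, -0.14 (adjusted p = 0.0222), which was not called without palmitate 9, palmitate 11, palmitate 12 or palmitate + IL-1β 15 (log2 fold changes -0.14 to -0.13, adjusted p from 0.0506 to 0.0624). Its interaction value was -0.07 (adjusted p = 0.757). With upper-quartile factors Col8a1 was called lower with IL-1β too, -0.12 (adjusted p = 0.0317).

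Col8a2, the other type VIII chain, measured 20.0, 18.4, 18.8 and 19.3 CPM in BSA, 17.6, 19.9, 21.0 and 18.1 with IL-1β, 14.6, 13.1, 13.8 and 14.1 with palmitate and 14.0, 12.8, 11.4 and 13.5 with palmitate + IL-1β. All 8 libraries with palmitate lay below all 8 without it. It fell by 0.47 (adjusted p = 1.71e-06) on the log2 scale with palmitate and by 0.57 (adjusted p = 5.04e-08) with both, and stood at 0.00 (adjusted p = 0.990) with IL-1β. Against IL-1β the values were -0.48 (adjusted p = 2.79e-06) and -0.57 (adjusted p = 1.04e-07). Col10a1, the type X chain of growth cartilage, measured 14.7, 12.0, 13.0 and 12.0 CPM in BSA, 11.3, 9.80, 10.2 and 12.1 with IL-1β, 9.57, 7.57, 9.33 and 9.00 with palmitate and 9.26, 7.25, 10.9 and 9.14 with palmitate + IL-1β. Palmitate and combined libraries lay below BSA, and IL-1β overlapped with it. Col10a1 stood at -0.57 (adjusted p = 4.86e-05) with palmitate, -0.50 (adjusted p = 0.000183) with both and -0.26 (adjusted p = 0.0950) with IL-1β, the last called lower with upper-quartile factors (-0.30, adjusted p = 0.0457) and with no filter (-0.27, adjusted p = 0.0286). It was lower with palmitate than with IL-1β, -0.32 (adjusted p = 0.0227), though not without IL-1β 5, IL-1β 8 or palmitate 10 (log2 fold changes -0.30 to -0.22, adjusted p from 0.0566 to 0.151) or without IL-1β 8 and palmitate + IL-1β 15 together (-0.26, adjusted p = 0.0537). With both against IL-1β it stood at -0.24 (adjusted p = 0.0737), called without palmitate + IL-1β 15 (log2 fold change -0.34, adjusted p = 0.0130).

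Multiplexins sit in the zone beside basement membranes, and Col18a1 carries the endostatin fragment at its end. Col18a1 measured 604, 564, 579 and 545 CPM in BSA, 579, 606, 588 and 524 with IL-1β, 775, 787, 755 and 739.7 with palmitate and 753, 725, 768 and 789 with palmitate + IL-1β. The 8 libraries with palmitate lay above the 8 without it. Its log2 fold change was 0.42 with palmitate (95% interval 0.32 to 0.51, adjusted p = 5.63e-09), 0.41 (adjusted p = 6.29e-09) with both and 0.00 (adjusted p = 0.973) with IL-1β. Against IL-1β it was 0.41 (adjusted p = 1.07e-08) with palmitate and 0.40 (adjusted p = 1.44e-08) with both. Col15a1, the related chain, averaged 43.7 ± 1.18 CPM in BSA and 46.0 ± 1.26 CPM with palmitate and was not called, at 0.08 (adjusted p = 0.242).

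Col7a1, the chain of the anchoring fibrils that tie basement membranes to the tissue below, measured 14.9, 14.0, 15.6 and 13.2 CPM in BSA, 13.3, 14.1, 13.0 and 16.6 with IL-1β, 13.0, 17.8, 15.6 and 15.2 with palmitate and 16.9, 17.9, 17.7 and 16.2 with palmitate + IL-1β. The combined libraries lay above all BSA libraries, and single agents overlapped with BSA. It rose with both agents, 0.25 (adjusted p = 0.0122), a call lost with upper-quartile factors (0.17, adjusted p = 0.0824) and with the length offset (0.14, adjusted p = 0.145). With both against IL-1β it was 0.28 (adjusted p = 0.0106), lost without IL-1β 7 (log2 fold change 0.22, adjusted p = 0.0633). Palmitate against IL-1β gave 0.14 (adjusted p = 0.214), called without IL-1β 8 (log2 fold change 0.22, adjusted p = 0.0478). Col28a1, a chain with domains like those of type VI, measured 1.45, 1.20, 1.87 and 1.54 CPM in BSA, 1.84, 1.21, 1.27 and 1.20 with IL-1β, 1.12, 0.981, 0.845 and 0.822 with palmitate and 1.64, 1.06, 1.06 and 0.995 with palmitate + IL-1β. Its palmitate libraries lay below BSA, and the other groups overlapped with it. Col28a1 fell with palmitate, -0.67 (adjusted p = 0.0143), except without BSA 3 (log2 fold change -0.56, adjusted p = 0.0577), and stood at -0.32 (adjusted p = 0.218) with both.

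Transmembrane collagens were rare. Col23a1 measured 2.10, 2.78, 1.75 and 1.78 CPM in BSA, 2.17, 1.95, 2.31 and 1.16 with IL-1β, 2.87, 3.03, 2.20 and 3.49 with palmitate and 2.58, 1.72, 2.12 and 1.33 with palmitate + IL-1β. The groups overlapped in every comparison. It was higher with palmitate than with IL-1β, 0.60 (95% interval 0.18 to 1.02, adjusted p = 0.0241), and not without IL-1β 8, palmitate 10 or palmitate 12 (log2 fold changes 0.43 to 0.57, adjusted p from 0.0760 to 0.104) or without IL-1β 8 and palmitate + IL-1β 15 together (0.43, adjusted p = 0.104). Against BSA palmitate gave 0.46 (adjusted p = 0.0695), called without BSA 2, IL-1β 8 or palmitate 11 (log2 fold changes 0.46 to 0.61, adjusted p from 0.0235 to 0.0426). With both against palmitate it stood at -0.57 (adjusted p = 0.0680), called lower without IL-1β 8, palmitate 11 or palmitate + IL-1β 13 (log2 fold changes -0.75 to -0.57, adjusted p from 0.0231 to 0.0419). Col17a1, a hemidesmosome protein of epithelia, averaged 0.625 ± 0.160 CPM in BSA and was not called in any of the 7 tests.

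Genes that act on collagen chains were taken as 5 lists. The lists were chosen with earlier results of these data known, so their counts describe the listed genes and are no independent test. Of 21 tested genes for hydroxylation, folding and export, 6 rose and 6 fell with palmitate, 0 changed with IL-1β in edgeR, and 5 rose and 9 fell with both. Beside them stand the shares of all genes, 19.8% rising and 17.5% falling with palmitate, 10.1% and 4.97% with IL-1β, and 24.8% and 22.5% with both. With palmitate, P4ha2, a prolyl hydroxylase subunit, rose by 0.51 and Mia2, which helps load procollagen into transport carriers, by 0.41, while the lysyl hydroxylase Plod2 stood at -0.28 and P3h4 at -0.26 (adjusted p from 5.94e-11 to 0.000129). Serpinh1, the collagen chaperone HSP47, stood at -0.11 (adjusted p = 0.0849) with palmitate and -0.20 (adjusted p = 0.00182) with both. With upper-quartile factors this list had 3 rises and 12 falls with palmitate, and without palmitate 12 it had 4 and 3. Its counts with both agents were 3 to 5 rises and 8 to 11 falls over the alternatives. Beside the 0 with IL-1β, DESeq2 gave 0 and 3 genes had an unadjusted p under 0.05. With IL-1β, 1 gene fell without BSA 3, BSA 4, IL-1β 7 or palmitate + IL-1β 15, 2 fell without palmitate + IL-1β 16, and 3 fell with upper-quartile factors.

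Of 15 tested genes for procollagen processing and crosslinking, 4 rose and 3 fell with palmitate, 3 rose and 1 fell with IL-1β, and 5 rose and 4 fell with both, where 37.3%, 15.1% and 47.3% of all genes changed in either direction. Over the alternatives the rises numbered 3 to 5 with palmitate, 3 to 4 with IL-1β and 5 with both. The falls numbered 3 to 5, 1 to 3 and 4 to 6 in the same order. Adamts14, a procollagen N-proteinase, rose by 1.72 (adjusted p = 3.19e-21) with palmitate, 0.49 (adjusted p = 6.11e-07) with IL-1β and 1.69 (adjusted p = 3.80e-21) with both. The crosslinking oxidases Loxl2 and Loxl4 rose with palmitate by 0.34 and 0.33, whereas Pcolce, an enhancer of C-proteinase, and Tll1, itself a C-proteinase, stood at -0.42 and -0.50 (adjusted p from 4.42e-11 to 9.50e-07). Adamts14 also passed the interaction at -0.52 (adjusted p = 0.000103). Of 5 tested collagen-degrading proteases, 3 rose with palmitate, 2 with IL-1β and 2 with both, where 19.8%, 10.1% and 24.8% of all genes rose in edgeR. None fell in the main edgeR fit or in DESeq2, though up to 1 fell with both agents under the other alternatives. Mmp13, an interstitial collagenase, rose by 1.61 (adjusted p = 3.30e-20) with palmitate and 0.74 (adjusted p = 1.56e-10) with IL-1β, with an interaction of -0.63 (adjusted p = 4.94e-06), and Mmp9, a gelatinase, by 1.30 (adjusted p = 1.05e-12) with palmitate. The count of 2 proteases with IL-1β was 1 without BSA 1, BSA 3, IL-1β 6 or IL-1β 7.

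Of the 8 collagen receptors and uptake genes, 2 rose and 3 fell with palmitate, 1 rose with IL-1β, and 2 rose and 3 fell with both, where 37.3%, 15.1% and 47.3% of all genes changed. The rise with IL-1β, that of Ddr2, a collagen receptor kinase, was not called with the transcript length offset, at 0.10 (adjusted p = 0.0790, against 0.00668). Itga2 and Itga11 encode collagen-binding integrin chains, and they moved in opposite directions with palmitate, 1.40 (adjusted p = 6.26e-08) and -0.39 (adjusted p = 1.84e-09). The rises with palmitate numbered 1 in DESeq2, with upper-quartile factors, with the filter at an average log2 CPM of 1, and without BSA 1, BSA 2, BSA 4, IL-1β 7, palmitate 9, palmitate 10, palmitate 12, palmitate + IL-1β 13 or palmitate + IL-1β 14. Ddr2 lost its call with palmitate under 13 of the 24 alternatives, the transcript length offset among them.

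Among 14 partners of type IV collagen in basement membranes, 9 rose and 1 fell with palmitate, 8 rose and 0 fell with IL-1β by edgeR, and 10 rose and 1 fell with both, where 19.8%, 10.1% and 24.8% of all genes rose. The laminin chain Lama4 stood at 0.78, Lamc1 at 0.66, the linker Nid1 at 0.61 and the proteoglycan Agrn at 0.61 with palmitate, while Nid2 was lower at -0.78 (adjusted p from 1.82e-16 to 1.16e-10). The list's median log2 fold change was 0.54 with palmitate, 0.31 with IL-1β and 0.64 with both, beside 0.00 for all genes in each. As this list too was chosen with earlier results known, its shares and medians are descriptive. Over the alternatives the rises numbered 7 to 10 with palmitate, 5 to 9 with IL-1β and 9 to 10 with both, the 5 being reached without BSA 1, BSA 2 or IL-1β 8. With the transcript length offset 10 rose and 1 fell with palmitate, 8 and 1 with IL-1β, and 10 and 2 with both. Lama4, Lamc1, Nid1, Agrn and Nid2 lost their call with palmitate under 0 of the 24 alternatives to the edgeR fit, DESeq2 among them.

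The gene pairs lie in the genome in ways that the selection did not use. In GRCm39, Col4a1 and Col4a2 stand head to head on chromosome 8, with canonical starts at 11362826 on the minus strand and 11362509 on the plus strand, so that their 5′ ends overlap. Col4a3 and Col4a4 share such an arrangement on chromosome 1, and Col4a5 and Col4a6 on chromosome X, where 1281 bases separate the starts. Col4a1 and Col4a2 were both called higher with palmitate, while Col4a3 was called without Col4a4, and neither Col4a5 nor Col4a6 was called. Col3a1 and Col5a2 lie tail to tail on chromosome 1 with 16713 bases between them. Col6a2 and Col6a1 follow each other on chromosome 10. Of the 44 members, 3 share exon sequence with another gene on the same strand, Col20a1 for 1.67% of its exon bases, Col3a1 for 1.37% and Col7a1 for 0.350%.

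Promoters were read from the GRCm39 genome as 250 bases before to 50 after the canonical start and searched on both strands for a few motifs. CCAAT was found in 17 of the 44 members' windows (38.6%) and in 40.0% of all 21667 protein-coding promoters, and TATAAA in 8 (18.2%) against 13.2%. GGGCGG was in 23 (52.3%) against 42.5%, TGANTCA in 1 (2.3%), Col6a1, against 7.2%, and the κB motif in 5 (11.4%) against 8.9%. A match describes these letters and is no evidence of a binding site. Capitals mark every match on either strand, so that CCAAT also appears as ATTGG and GGGCGG as CCGCCC. The 5 windows shown are those of the type I chain that fell with palmitate, Col1a2, the head-to-head type IV pair, and the well-expressed fibrillar genes with the largest rise and fall, Col5a3 and Col11a1. The windows are chr6:4505243-4505542 (plus strand), chr8:11362777-11363076 (minus), chr8:11362259-11362558 (plus), chr9:20726369-20726668 (minus) and chr3:113823884-113824183 (plus), each written 5′ to 3′ on the gene's strand. None of these holds TATAAA, and Col4a2 holds none of the motifs.
Col1a2: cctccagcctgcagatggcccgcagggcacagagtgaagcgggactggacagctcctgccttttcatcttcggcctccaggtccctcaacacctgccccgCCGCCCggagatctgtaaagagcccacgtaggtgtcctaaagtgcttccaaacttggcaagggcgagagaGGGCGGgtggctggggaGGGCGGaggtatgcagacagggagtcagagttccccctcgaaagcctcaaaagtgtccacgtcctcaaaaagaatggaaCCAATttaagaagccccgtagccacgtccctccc
Col4a1: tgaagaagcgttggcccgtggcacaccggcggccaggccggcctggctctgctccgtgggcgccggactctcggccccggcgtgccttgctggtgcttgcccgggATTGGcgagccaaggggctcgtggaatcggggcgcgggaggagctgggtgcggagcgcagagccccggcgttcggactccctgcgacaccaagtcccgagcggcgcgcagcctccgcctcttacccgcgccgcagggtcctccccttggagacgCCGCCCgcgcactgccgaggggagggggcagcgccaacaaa
Col4a2: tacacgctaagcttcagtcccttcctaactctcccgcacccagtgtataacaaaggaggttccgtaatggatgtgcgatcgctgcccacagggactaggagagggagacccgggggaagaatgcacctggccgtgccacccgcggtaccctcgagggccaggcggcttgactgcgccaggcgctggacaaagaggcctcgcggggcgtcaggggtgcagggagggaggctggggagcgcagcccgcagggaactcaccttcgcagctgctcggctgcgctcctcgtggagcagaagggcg
Col5a3: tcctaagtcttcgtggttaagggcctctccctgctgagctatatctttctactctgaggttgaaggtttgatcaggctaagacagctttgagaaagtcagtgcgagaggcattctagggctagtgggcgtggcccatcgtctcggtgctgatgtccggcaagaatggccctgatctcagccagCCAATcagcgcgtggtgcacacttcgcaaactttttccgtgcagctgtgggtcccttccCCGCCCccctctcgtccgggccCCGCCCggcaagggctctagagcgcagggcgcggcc
Col11a1: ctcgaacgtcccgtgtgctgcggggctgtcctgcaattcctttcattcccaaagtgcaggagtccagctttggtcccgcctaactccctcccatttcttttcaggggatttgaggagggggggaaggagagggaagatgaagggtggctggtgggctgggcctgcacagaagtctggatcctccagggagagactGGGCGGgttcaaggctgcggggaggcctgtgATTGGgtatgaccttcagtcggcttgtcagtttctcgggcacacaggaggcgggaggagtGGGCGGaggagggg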

How the data were processed

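RNA of 16 libraries, 4 for each of 4 conditions, was measured by bulk sequencing. The authors deposited raw counts per gene, made per the labels with Trimmomatic 0.39, STAR 2.7.10a on GRCm39 and HTSeq 2.0.9; summary lines that name no gene held 18.3% to 21.4% of the total and were left out. Genes were kept by filterByExpr (10 counts, 15 in total), scaled with TMM factors and tested with edgeR 4.0.16 (quasi-likelihood, robust) in R 4.3.3, with Benjamini-Hochberg adjustment over 16306 genes for 6 comparisons and the interaction. Chain ratios were compared by two-sided exact permutation tests. Positions and promoters came from GRCm39 and its GENCODE annotation, in which 56323 of 56941 gene identifiers matched. All tested members could be named. Library values are given for types I, III, IV, V and VI and for the 3 largest rises and falls of a comparison, and up to 4 genes a direction are named for each pathway list, a rule written before the tests were run. Members and lists were chosen with earlier results of these data known. Alternatives were DESeq2 1.42.0, upper-quartile factors, TMM without collagen genes, no filter, a filter at an average log2 CPM of 1, only the libraries compared, and each library left out.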

Additional observations from a re-analysis of the deposited data

Results flagged for a closer look

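Within groups of 4 libraries, 9 of 140 gene and group pairs had a library whose gap to the nearest other passed Dixon's 95% critical value, where chance alone gives about 7. Col6a1 was low in palmitate 12 at 1488 CPM and Col1a1 was low in palmitate 11 at 13219 CPM. Col11a2 stood apart in BSA 1 at 5.15 CPM, Col15a1 in BSA 4 at 45.4 CPM and Col8a1 in IL-1β 8 at 402 CPM. Col4a6 did so in IL-1β 5 at 0.286 CPM and in palmitate 12 at 0.863 CPM. Col28a1 stood apart in IL-1β 5 at 1.84 CPM and in palmitate + IL-1β 13 at 1.64 CPM. No cause was tested.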

How the results depend on the processing

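The numbers of changed collagen genes kept within 1.5 times their value under every alternative for palmitate, and for both agents, against BSA, for both against IL-1β and for palmitate against IL-1β, with each library left out giving 14 to 17, 16 to 20, 8 to 11 and 8 to 11. For IL-1β against BSA the count of 4 became 2 with TMM factors computed without collagen genes, 2 with no filter on low counts (1 higher, 1 lower), 2 with only the 8 libraries compared and 2 with the transcript length offset, and ranged from 0 to 8 over the libraries left out. The 2 called with no filter were not among the 4. For both against palmitate the count of 1 became 2 with no filter, with only the 8 libraries compared, and without IL-1β 8 and palmitate + IL-1β 15 together, and ranged from 0 to 2. The interaction stayed at 0 in edgeR under each alternative and in DESeq2, with 5 and 2 members at an unadjusted p under 0.05. The cause of these shifts was not tested. No called gene changed direction. Calls held under all alternatives in which the gene was tested for 13 of 16 genes with palmitate, 14 of 19 with both, 7 of 10 for both against IL-1β, 7 of 11 for palmitate against IL-1β, 0 of 4 with IL-1β and 0 of 1 for both against palmitate. Col4a3, Col24a1 and Col9a3, among those that held with palmitate and with both, were not tested under the filter at an average log2 CPM of 1. The length offset and the removal of 2 libraries together were chosen after seeing the data. No paired analysis was possible because the library numbers are not shared between conditions. The 9 members left out by the filter had at most 17 counts in a library. For the chain ratios without each library only the differences were computed again, not the p-values.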
